A study of Mus musculus with 6 samples.

Results

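The genes described here are 32 endothelial and angiogenic genes: the markers, receptors, ligands and transcription factors by which blood vessels are recognised and grown. They were listed by name and matched to probe sets that carry a single gene symbol, and each gene was read from its probe set with the highest mean signal over all 6 arrays. All 32 genes were found, out of 18193 genes with such a probe set. Of these, 27 members, among 12971 genes in all, were bright enough on average to be tested, and 5 were not. The samples were whole testes of mice at postnatal day 21, in 2 groups of 3: testes lacking a working Nxf2 gene (KO) and wild-type testes (WT), each hybridised to its own 1-colour Affymetrix array. The study describes the testes as 3 pairs of KO and WT, without saying what a pair had in common or which samples formed it. Nxf2 is an X-linked germ cell relative of the mRNA export receptor gene Nxf1. Strain, allele and the number of animals per sample are not given in the sources used here. The p-values therefore rest on the spread among these 6 samples, which may be partly technical.

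Blood vessels of the testis run between the seminiferous tubules and do not enter them. Their endothelial cells are held together by VE-cadherin and PECAM-1, take growth and survival signals from VEGF ligands through VEGF receptors with neuropilins as co-receptors, and are kept quiescent or made responsive by angiopoietins acting on the receptor TIE2. Transcription factors of the ETS and SOX families maintain endothelial identity. Several members are also known outside vessels, for example Cav1 in muscle and fat cells, Ets1 in lymphocytes and Vegfa in many cell types. In RNA from a whole organ, a difference in the number of cells of a type and a difference in RNA per cell cannot be told apart.

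The targeted gene read 118 ± 12.4 in KO and 367 ± 23.6 in WT (SD, n = 3 each); its log2 fold change was -1.59 (limma, adjusted p = 0.000488). Median signals were 37.1 to 40.9 over the 6 arrays, and Spearman correlations between arrays were 0.965 to 0.992. Over all 27022 tested probe sets, 610 rose and 1414 fell in KO, and with each array centred on its median 247 rose and 1382 fell. Leaving out 1 array gave 159 calls (without WT replicate 1) to 1534 calls in all. Round spermatid markers fell in KO (9 of 9 tested genes) and undifferentiated spermatogonial markers rose (5 of 9), while 4 of 9 pachytene spermatocyte markers fell.

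Endothelial and angiogenic genes were slightly higher in KO testes, and 3 of them, all receptors, rose past the test: Nrp1, Tek and Robo4. None fell. The 3 calls among 27 tested members (11.1%) stood beside 2.98% of all tested genes called higher and 7.37% called lower (limma, Benjamini-Hochberg adjusted p under 0.05). At an unadjusted p under 0.05 there were 8 members, all higher in KO, and none lower. The share of all tested genes at that level was not counted. Such counts, here and for the lists below, therefore have no background beside them. The median log2 fold change (KO minus WT) was 0.25 over the tested members, with a range of -0.16 to 0.61, and 0.036 over all tested genes. In KO, 24 of the 27 had the higher mean, as did 56.9% of all tested genes. All 3 KO arrays lay above all 3 WT arrays for 10 members (37%), against 21.5% of all tested genes. No member lay wholly below WT, a pattern shown by 18.3% of all tested genes. These shares are descriptions of a list chosen with earlier results of these data known, and carry no test of their own. Log2 values were taken after adding 7 to each signal, so the change of a dim gene is understated.

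**Figure D1:**
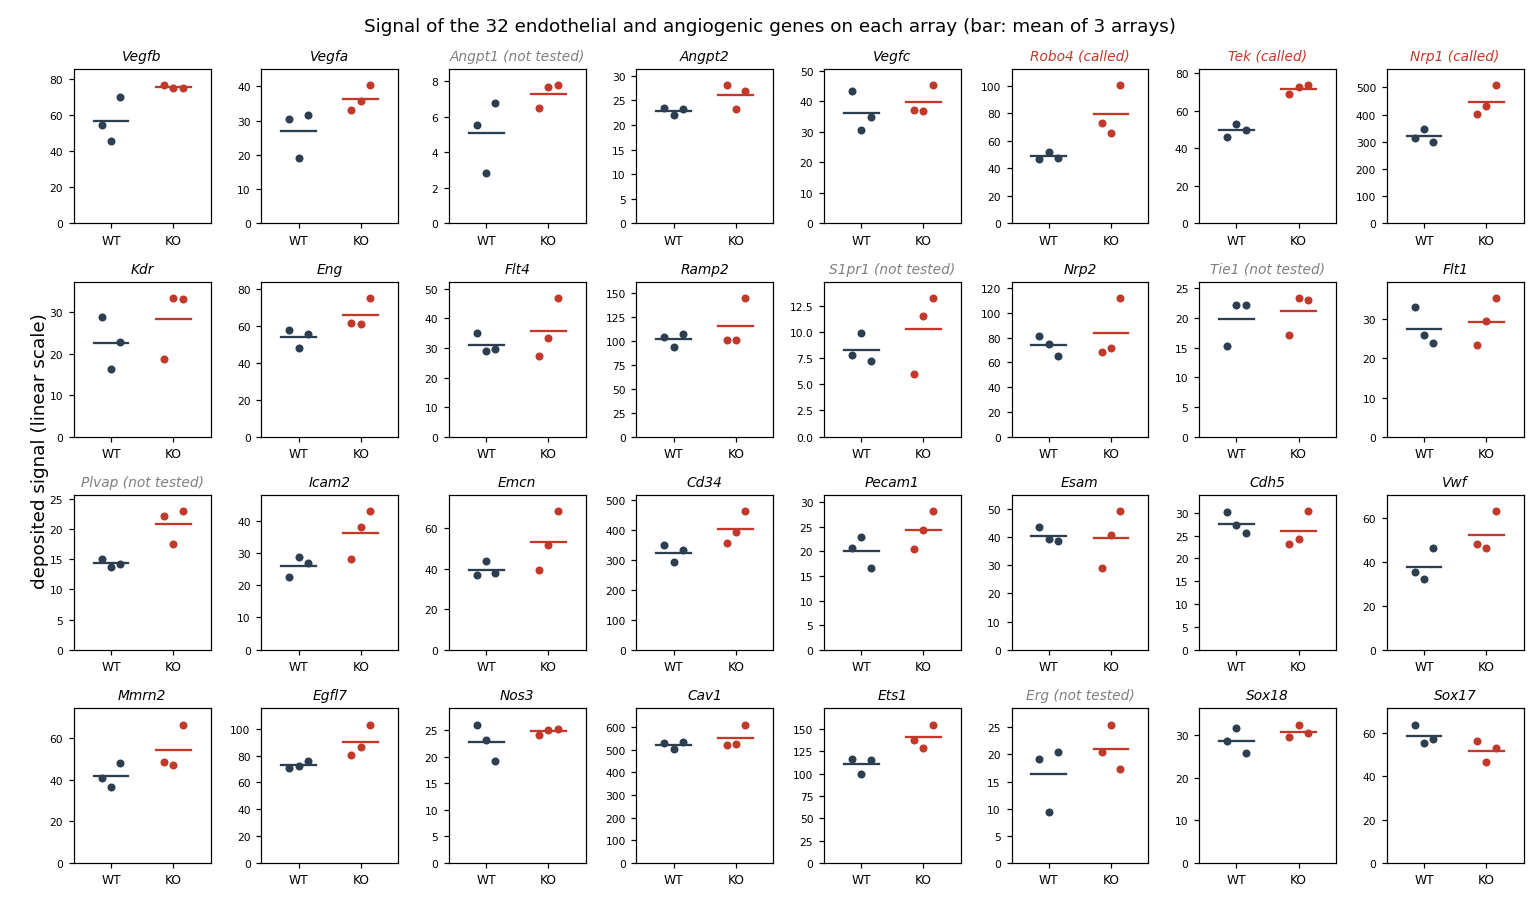
Deposited signal (linear scale, each panel from 0) of the 32 members on the 3 WT and 3 KO arrays, with a bar at each group mean; red titles mark called members and grey titles members too dim to be tested. The KO points of Nrp1, Tek and Robo4 all sit above their WT points, while those of Cdh5, Esam and Cav1 overlap them.

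Several defining markers of endothelium were near the lower limit of what was tested. The limit was a mean signal of 20.54, the 40th percentile of all probe set means. Pecam1 was just inside it, with a mean of 22.17, and Tie1 just outside, with 20.50. Of the 27 tested members, 12 had a mean below 41.1, which is 2 times the limit. Detection calls were not used here, so for such genes it is not known how much of the signal lay above background. Pecam1 was the 1 tested member whose WT mean was below the limit.

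Nrp1 encodes neuropilin 1, a co-receptor for VEGF and semaphorins. Its signal was 403.6, 430.0 and 508.0 in KO replicates 1 to 3, and 315.9, 346.8 and 297.6 in WT replicates 1 to 3. Each KO testis exceeded each WT testis. The log2 fold change was 0.47 ± 0.0961 (SE), a 1.38-fold rise (limma, adjusted p = 0.0210). The gene had 3 further tested probe sets, with log2 fold changes of 0.45 (adjusted p = 0.0640), 0.35 (adjusted p = 0.0894) and 0.38 (adjusted p = 0.184). All 4 read higher in KO, and the brightest alone was called.

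Tek encodes TIE2, the angiopoietin receptor of endothelial cells. It read 69.0, 72.6 and 73.5 in the KO testes and 46.1, 53.1 and 49.6 in the WT testes. The replicates lay close together in both groups, and the groups did not overlap. Tek rose by 0.48 ± 0.119 on the log2 scale (SE), or 1.39-fold (limma, adjusted p = 0.0398).

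Robo4, an endothelial member of the Roundabout receptor family known for stabilising vessels, read 72.7, 65.9 and 100.3 in KO and 46.8, 52.1 and 47.6 in WT. KO replicate 3 was well above the other KO testes, which were still above every WT testis. The log2 fold change was 0.61 ± 0.157 (SE), or 1.53-fold (limma, adjusted p = 0.0430), the largest among the 27 tested members. Tek and Robo4 had 1 probe set each.

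The 250 bases before the annotated start of these 3 genes are shown because the genes rose together and the RefSeq promoter table of GRCm38.p6 holds all 3. They are written 5′ to 3′ on the gene's strand, which is the plus strand in each case. Capitals mark matches, on either strand, to the ETS-type words AGGAAG and CGGAAG, the SOX-type words ACAATG and ACAAAG, or the GATA-type word AGATAA. Nrp1 lies on chromosome 8 (chr8:128358823-128359072), Robo4 on chromosome 9 (chr9:37401722-37401971) and Tek on chromosome 4 (chr4:94739039-94739288).
Nrp1: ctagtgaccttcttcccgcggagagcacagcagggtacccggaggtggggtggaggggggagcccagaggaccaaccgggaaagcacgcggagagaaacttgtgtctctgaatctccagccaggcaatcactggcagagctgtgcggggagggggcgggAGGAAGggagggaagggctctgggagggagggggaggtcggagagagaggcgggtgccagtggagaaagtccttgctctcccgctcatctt
Robo4: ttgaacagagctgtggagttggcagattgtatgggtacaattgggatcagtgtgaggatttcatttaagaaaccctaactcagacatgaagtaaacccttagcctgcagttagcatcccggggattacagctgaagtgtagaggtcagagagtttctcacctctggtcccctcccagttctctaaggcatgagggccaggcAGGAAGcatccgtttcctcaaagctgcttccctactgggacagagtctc
Tek: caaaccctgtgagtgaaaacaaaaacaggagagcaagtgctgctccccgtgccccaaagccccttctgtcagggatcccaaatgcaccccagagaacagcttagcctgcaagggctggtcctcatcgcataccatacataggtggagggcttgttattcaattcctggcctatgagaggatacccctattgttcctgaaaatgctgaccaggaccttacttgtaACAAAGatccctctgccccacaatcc
Nrp1 and Robo4 each held 1 ETS-type word AGGAAG, whose first base lies 91 bases before the start in Nrp1 and 49 bases before it in Robo4. Tek held no ETS-type word and 1 SOX-type word, ACAAAG, from 26 bases before the start. The Nrp1 stretch had a GC content of 64.4%, against 49.6% in Robo4 and 51.2% in Tek. In the table's full windows of 300 bases, an ETS-type word was present in 46.5% of 32851 promoters and in 11 of the 23 promoters listed for 17 members (47.8%). SOX-type words were present in 28.6% of all promoters and 4 of the 23, and the GATA-type word in 11.2% and 3 of the 23. The words were therefore about as frequent in member promoters as elsewhere for the ETS and GATA types, and a match describes letters only, not binding.

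The other 6 tested receptors did not pass the test, although all had a higher mean in KO. Eng, the endothelial TGF-beta co-receptor endoglin, read 61.5, 61.1 and 75.0 in KO and 58.0, 48.3 and 55.7 in WT. Its groups did not overlap, but its log2 fold change of 0.25 had an interval of -0.043 to 0.55 (95%, limma, adjusted p = 0.237). Kdr, the main signalling VEGF receptor, was widely spread within both groups, from 18.8 to 33.3 in KO and from 16.3 to 28.7 in WT, and its interval ran from -0.23 to 0.74. Flt1, a VEGF receptor that binds its ligand tightly and signals weakly, had a log2 fold change of 0.069 (-0.31 to 0.45), and Flt4, the VEGF-C receptor of lymphatic vessels, one of 0.15 (-0.25 to 0.54). Both overlapped between the groups. Nrp2, the second neuropilin, read 68.6, 71.5 and 111.9 in KO and 81.5, 75.1 and 65.5 in WT. Only KO replicate 3 stood out, and without it the log2 fold change of Nrp2 went from 0.14 to -0.068. Ramp2, which partners the receptor for adrenomedullin, had the same shape: 100.5, 100.4 and 144.0 in KO and 103.3, 93.7 and 107.2 in WT, with log2 fold changes of 0.15 and, without KO replicate 3, -0.011.

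**Figure D2:**
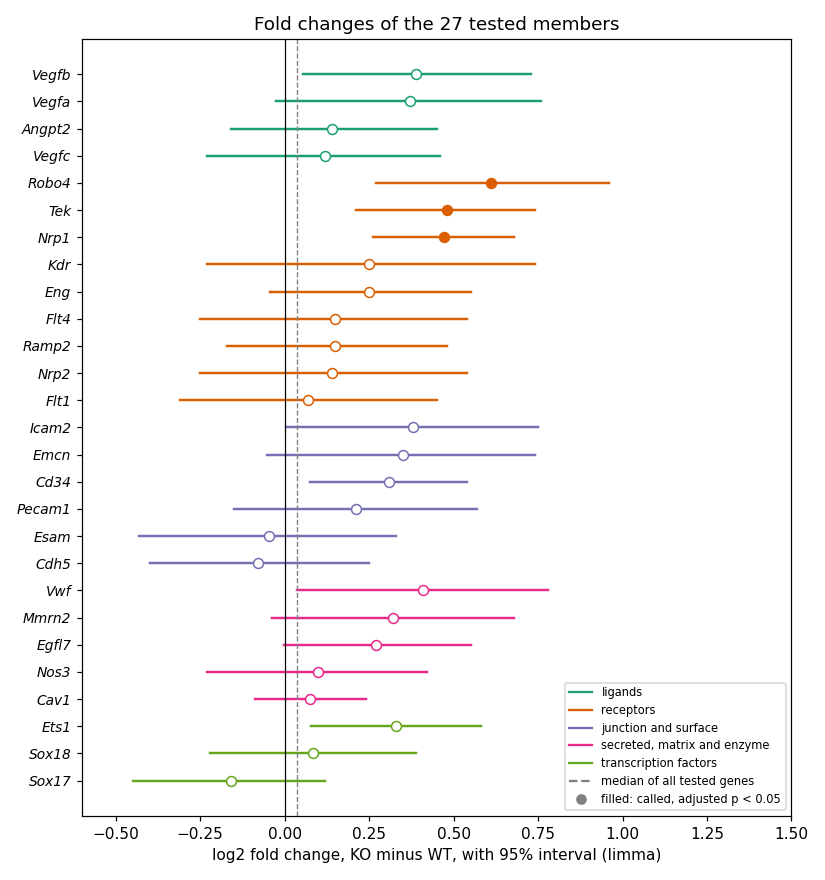
Log2 fold change (KO minus WT) of the 27 tested members with its 95% interval from limma, coloured by role; filled points passed an adjusted p of 0.05 and the dashed line is the median of all tested genes, 0.036. Only Robo4, Tek and Nrp1 are filled, and Esam, Cdh5 and Sox17 are the 3 points left of 0.

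Among the ligands, none of the 4 tested members was called and all 4 had a higher mean in KO (1 at an unadjusted p under 0.05, limma). Vegfb, a VEGF relative that binds FLT1, read 76.7, 74.9 and 75.3 in KO and 54.7, 45.5 and 70.3 in WT. The KO values were tightly grouped and the WT values were not. Its log2 fold change was 0.39 (0.054 to 0.73, adjusted p = 0.129 by limma). Vegfa, the principal angiogenic ligand, read 33.1, 35.8 and 40.3 in KO and 30.6, 19.2 and 31.5 in WT. Its groups were separate, but by a narrow margin apart from the low WT replicate 2, and its log2 fold change was 0.37 (-0.026 to 0.76). Vegfc, the lymphatic ligand, read 36.7 to 45.2 in KO and 30.7 to 43.2 in WT, with a log2 fold change of 0.12 (-0.23 to 0.46). Angpt2, the context-dependent TIE2 ligand, read 23.2 to 28.1 in KO and 22.0 to 23.5 in WT, with a log2 fold change of 0.14 (-0.16 to 0.45).

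The junction and surface markers of endothelium gave no call among 6 tested genes, 4 of them with a higher mean in KO (2 at an unadjusted p under 0.05, limma). Cd34, a sialomucin of endothelium and of progenitor and stromal cells, read 356.0, 391.5 and 460.3 in KO and 348.1, 291.4 and 330.4 in WT. Every KO testis was above every WT testis, the nearest pair by a small margin. Its log2 fold change of 0.31 ± 0.104 (SE) was among the closest to the threshold of those not called (limma, adjusted p = 0.0948). Icam2, an adhesion molecule constitutive on endothelium, read 28.0, 38.0 and 42.8 in KO and 22.6, 28.8 and 26.7 in WT, with a log2 fold change of 0.38 (0.0049 to 0.75). Emcn, the venous and capillary sialomucin endomucin, read 39.5, 51.5 and 68.2 in KO and 36.9, 43.7 and 37.8 in WT, with a log2 fold change of 0.35 (-0.052 to 0.74). For Icam2 and Emcn, KO replicate 1 lay inside the WT range and KO replicates 2 and 3 above it.

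The 3 cell-to-cell junction genes overlapped between the groups. Cdh5, encoding VE-cadherin, read 23.2, 24.3 and 30.3 in KO and 30.1, 27.3 and 25.6 in WT, with a log2 fold change of -0.078 (-0.40 to 0.25). Esam, a tight junction adhesion molecule, read 29.1, 40.6 and 49.1 in KO and 43.6, 39.3 and 38.6 in WT, with a log2 fold change of -0.048 (-0.43 to 0.33), which became 0.12 without KO replicate 1. Pecam1 read 20.5, 24.3 and 28.1 in KO and 20.7, 22.9 and 16.6 in WT, with a log2 fold change of 0.21 (-0.15 to 0.57). The intervals include rises of the size seen in Cd34 for Esam and Pecam1 but not for Cdh5. Whether these genes differed from Tek, Robo4 or Nrp1 in their response was not tested.

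Of the secreted, matrix and enzyme genes, none of 5 was called and all 5 had a higher mean in KO (1 at an unadjusted p under 0.05, limma). Vwf, the clotting factor stored by endothelium, read 48.2, 46.4 and 63.2 in KO and 35.4, 32.2 and 46.4 in WT. The lowest KO testis and the highest WT testis were almost level. Its log2 fold change was 0.41 (0.037 to 0.78, adjusted p = 0.144 by limma). Egfl7, a secreted protein of endothelial cells, read 80.6, 86.8 and 103.2 in KO and 70.5, 72.6 and 76.3 in WT, again without overlap, with a log2 fold change of 0.27 (-0.0031 to 0.55). Its 4 tested probe sets gave log2 fold changes of 0.21 to 0.31. Mmrn2, an endothelial matrix protein, read 48.5, 47.3 and 66.5 in KO and 40.6, 36.5 and 48.0 in WT, with a log2 fold change of 0.32 (-0.037 to 0.68). Cav1, the main coat protein of caveolae, had the narrowest interval of all members: it read 523.1, 524.5 and 611.9 in KO and 529.7, 505.6 and 535.3 in WT, with a log2 fold change of 0.075 (-0.087 to 0.24). Nos3, the endothelial nitric oxide synthase, read 24.1 to 25.2 in KO and 19.2 to 26.0 in WT.

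Of the 3 tested transcription factors none was called (1 at an unadjusted p under 0.05, limma). Ets1, the founding member of the ETS family, read 138.4, 128.5 and 155.1 in KO and 116.2, 100.1 and 115.0 in WT. The groups did not overlap, and the log2 fold change was 0.33 ± 0.113 (SE; limma, adjusted p = 0.0971), with 0.32 for its second tested probe set. Sox17 had the lowest fold change of the 27: it read 56.2, 46.7 and 53.0 in KO and 64.0, 55.5 and 57.2 in WT, a log2 fold change of -0.16 (-0.45 to 0.12). A short form of Sox17 is also known from mouse male germ cells. Sox18, its relative in vessel and lymphatic development, read 29.4 to 32.4 in KO and 25.8 to 31.7 in WT, with a log2 fold change of 0.085 (-0.22 to 0.39).

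The 5 members below the limit were Angpt1, S1pr1, Plvap, Erg and Tie1. Plvap, which forms the diaphragms of fenestrated capillaries, read 22.1, 17.5 and 22.9 in KO and 15.1, 13.7 and 14.2 in WT. Its groups did not overlap, and in a fit of all probe sets without the limit its log2 fold change was 0.38 (0.047 to 0.71, adjusted p = 0.195 by limma). The other 4 overlapped between groups. Angpt1, the activating ligand of TIE2, read 6.48 to 7.78 in KO and 2.84 to 6.80 in WT. S1pr1, a sphingosine-1-phosphate receptor, read 6.01 to 13.2 in KO and 7.25 to 9.93 in WT. Tie1, the orphan partner of TIE2, read 17.2 to 23.3 in KO and 15.2 to 22.1 in WT, and Erg, an ETS factor of endothelium, 17.3 to 25.5 in KO and 9.44 to 20.4 in WT. Over all 32 members in that fit the median log2 fold change was also 0.25.

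Within genes, 8 members had more than 1 tested probe set. In 7 of them all probe sets read higher in KO: Nrp1, Egfl7, Eng, Ets1, Flt1, Flt4 and Mmrn2. The probe sets of Nrp2 disagreed, with log2 fold changes of 0.14, 0.077 and -0.13. These probe sets share the same 6 RNA samples and are not replicates.

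The member genes were not equally high in the 3 KO testes. KO replicate 3 gave the highest reading of the 6 arrays for 21 of the 27 tested members, and it gave the lowest for none. Each signal was also set against the gene's WT mean on the log2 scale. The median of these deviations over the tested members was 0.067, 0.16 and 0.46 in KO replicates 1 to 3, and 0.040, -0.049 and 0.0028 in WT replicates 1 to 3. In KO replicates 1, 2 and 3, 18, 23 and 26 of the 27 lay above the WT mean, as did 56.8%, 56.6% and 54.9% of all tested genes. Over all tested genes the KO medians were 0.032, 0.028 and 0.040. The deposited signals had the same mean on every array once the lowest and highest values were left out. Such scaling tends to level these medians, so they cannot show whether KO replicate 3 was raised across the array. An effect of that whole array or sample was not tested. WT replicate 2 gave the lowest reading for 12 of the 27. It was low in general: 39% of all tested genes lay above the WT mean on it. In WT replicates 1 and 3 that share was 53.7% and 58.8%. The share of all tested genes highest or lowest on a given array was not counted. Without KO replicate 3 the median fold change of the members was 0.15.

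The 3 called receptors were picked by a test on these same values, which favours genes raised on every KO array. All 3 were raised in each KO testis, KO replicate 1 included. Their deviations from the WT mean in KO replicates 1 to 3 were 0.33, 0.42 and 0.66 for Nrp1, 0.43, 0.49 and 0.51 for Tek, and 0.51, 0.39 and 0.94 for Robo4. In KO replicate 1, Esam, which was not called, deviated by -0.39, and likewise Cdh5 by -0.20, Flt1 by -0.18, Kdr by -0.17 and Flt4 by -0.15. Vegfb, Vwf and Ets1 were raised in KO replicate 1 as well, by 0.41, 0.31 and 0.31.

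**Figure D3:**
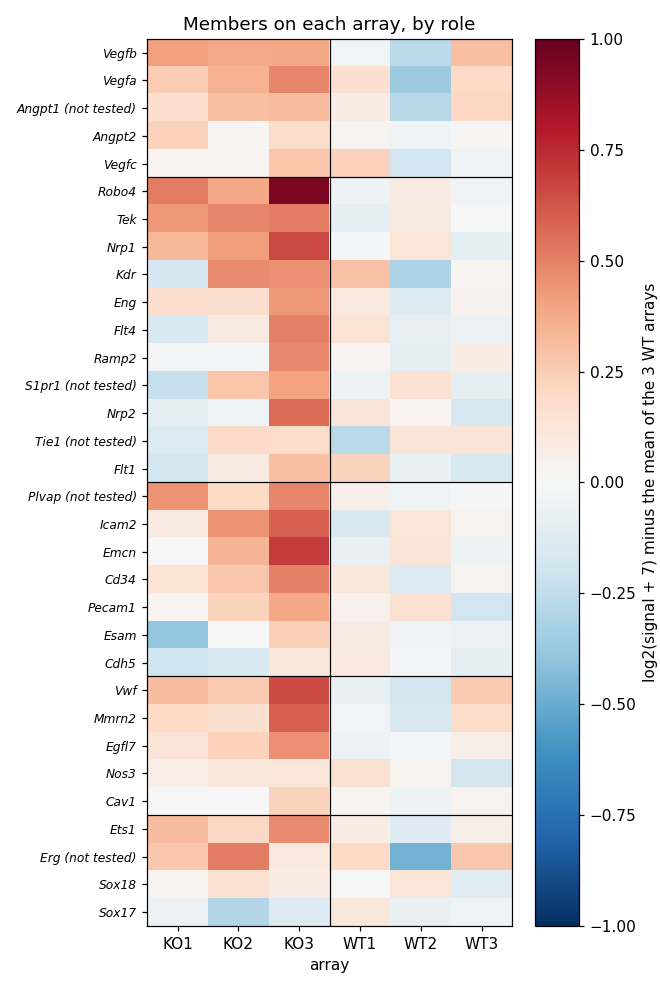
Deviation of each member from the mean of the 3 WT arrays on the scale of log2(signal + 7), for the 6 arrays (columns) and 32 members (rows, grouped by role from ligands at the top to transcription factors at the bottom). The KO3 column is the most strongly raised. In KO1 the rows of Robo4, Tek and Nrp1, called on these same values, are raised (0.51, 0.43 and 0.33). Those of Esam and Cdh5 are lowered (-0.39 and -0.20).

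Macrophage, Leydig cell, Sertoli cell and pericyte marker lists also had their highest median deviation on KO replicate 3. Fat markers were about level on KO replicates 2 and 3. Undifferentiated spermatogonial markers were about level on all 3 (0.36, 0.30 and 0.39). In the macrophage and immune list all 16 tested genes had a higher mean in KO, none was called (8 at an unadjusted p under 0.05, limma), and the median deviations were 0.14, 0.34 and 0.93 in KO replicates 1 to 3. The summed signal of that list was 3100 to 5043 in KO and 2218 to 3082 in WT. Leydig cell markers rose in 2 of 8 tested genes, with deviations of 0.27, 0.22 and 0.60 and sums of 3389 to 4876 in KO and 2926 to 3303 in WT. Sertoli cell markers rose in 3 of 10 genes, with deviations of 0.20, 0.16 and 0.32 and sums of 6530 to 6957 in KO and 5761 to 6045 in WT. Fat markers rose in 2 of 7 genes, with deviations of 0.19, 0.59 and 0.60 and sums of 829.8 to 1077 in KO and 426.8 to 642.3 in WT. Of the 14 pericyte and vascular smooth muscle markers none was called (3 higher and 1 lower at an unadjusted p under 0.05, limma). Their median log2 fold change was 0.14, with deviations of 0.063, 0.093 and 0.33 in KO replicates 1 to 3. Their sums were 2829 to 3308 in KO and 2712 to 2872 in WT. The median log2 fold change was 0.49 for the macrophage, 0.35 for the Leydig cell, 0.25 for the Sertoli cell and 0.5 for the fat list. That of the members was 0.25. The 2 tested red blood cell genes were not called, by limma or at an unadjusted p under 0.05 (0 of 2), with sums of 923.1 to 944.0 in KO and 905.8 to 999.3 in WT. The summed signal of the 27 endothelial and angiogenic genes was 2465 to 3103 in KO and 2168 to 2313 in WT. Round spermatid markers summed to 2408 to 2542 in KO and 3423 to 3782 in WT. No gene of these lists was at 0 on any array, and the part of these cell types in the members' differences was not tested.

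**Figure D4:**
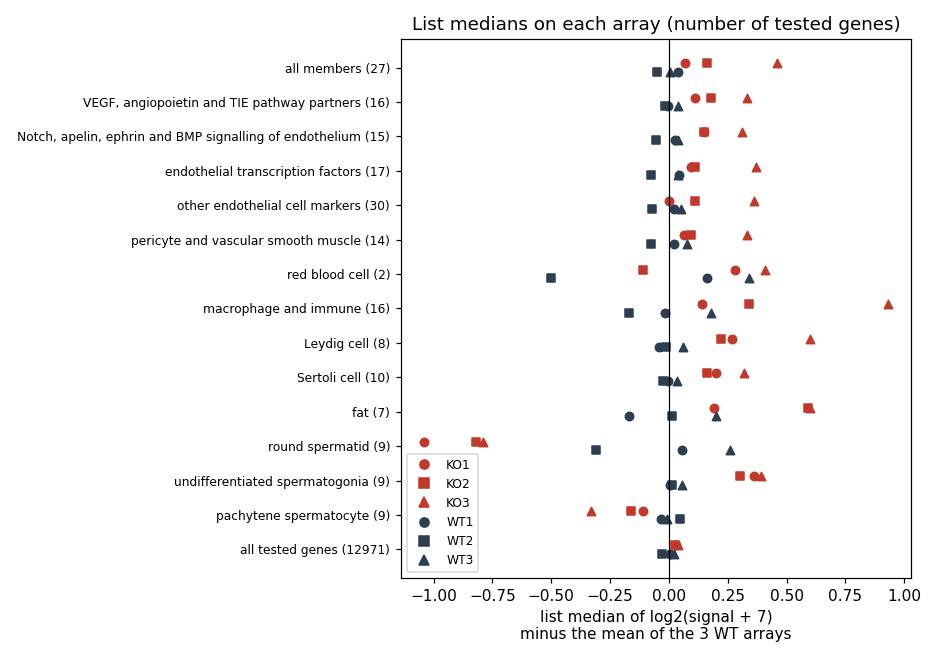
Median deviation from the mean of the 3 WT arrays (log2(signal + 7) scale) of the members, 4 further vascular lists, 9 marker lists and all tested genes, 1 symbol per array, with the number of tested genes in brackets. KO3, the red triangle, is furthest right among the members (0.46) and in the macrophage list (0.93), while round spermatid markers lie left of 0 in all 3 KO arrays.

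Vascular genes outside the member list were called higher about as often as genes in general. Of 78 tested genes 3 were called higher in KO and none lower, beside 2.98% and 7.37% of all tested genes. At an unadjusted p under 0.05 there were 21, with no share of all tested genes counted at that level. Their median log2 fold change was 0.21, against 0.036 over all tested genes. The KO mean was higher in 13 of 17 transcription factors and 12 of 15 genes of Notch, apelin, ephrin and BMP signalling. It was also higher in 14 of 16 VEGF, angiopoietin and TIE partners and 25 of 30 further markers, beside 56.9% of all tested genes. Among endothelial transcription factors, Foxf1 and Foxc2 rose and the other 15 of 17 did not pass, with a median log2 fold change of 0.23 for the list. Foxf1, a forkhead factor of mesenchyme and endothelium, read 185.5, 182.8 and 206.9 in KO and 119.9, 122.9 and 111.2 in WT. This was a log2 fold change of 0.67 ± 0.0980 (SE; limma, adjusted p = 0.00678), larger than that of any tested member. Foxc2, a forkhead factor of lymphatic valves and mesenchyme, read 59.9, 60.1 and 67.9 in KO and 45.4, 35.9 and 36.2 in WT, a log2 fold change of 0.60 (limma, adjusted p = 0.0302). Both genes are also known from mesenchymal cells.

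In the list of Notch, apelin, ephrin and BMP signalling, Notch1 rose and the other 14 of 15 genes did not pass, with a list median of 0.21. Notch1, a receptor used by endothelium and many other cells, read 463.2, 456.9 and 513.4 in KO and 380.2, 380.8 and 361.0 in WT, a log2 fold change of 0.35 (limma, adjusted p = 0.02). In this list 8 of the 15 genes read higher in all KO testes than in any WT testis, a pattern of 21.5% of all tested genes. The other vascular lists had smaller shares: 6 of 17 transcription factors, 2 of 16 pathway partners and 4 of 30 further endothelial markers. In the Notch list 1 gene read lower in all KO testes (18.3% of all tested genes). This lower gene was Hey1, a Notch target, which is named after its values were seen. It read 117.3 to 120.8 in KO and 133.3 to 141.1 in WT and was not called (limma, adjusted p = 0.225). None of the 16 tested partners of the VEGF, angiopoietin and TIE pathways was called (5 at an unadjusted p under 0.05, limma), with a median of 0.23. The lowest p values there were those of Ptn, the growth factor pleiotrophin, at a log2 fold change of 0.41 (limma, adjusted p = 0.0671), and Angptl4, an inhibitor of lipoprotein lipase, at 0.36 (limma, adjusted p = 0.158). None of 30 further endothelial markers was called (5 at an unadjusted p under 0.05, limma), with a median of 0.16. Procr, the endothelial protein C receptor, had a log2 fold change of 0.60 (limma, adjusted p = 0.0609), and Vcam1, an adhesion molecule of activated endothelium and stroma, one of 0.53 (limma, adjusted p = 0.0682). Without KO replicate 1 the calls among the 78 genes numbered 6, without WT replicate 3 there was 1, and without WT replicate 1 there was none (12 at an unadjusted p under 0.05, limma). The share of all tested probe sets that rose was 1.44%, 1.08% and 0.0592% in these fits.

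The calls of the 3 receptors depended on single arrays. Their direction could not turn when 1 array was left out, because every KO value lay above every WT value. Nrp1 was the sole member called without KO replicate 1, KO replicate 3 or WT replicate 2, and Nrp1 and Robo4 were called without KO replicate 2. No member was called without WT replicate 1 or without WT replicate 3 (5 and 9 at an unadjusted p under 0.05, limma). Calls were also fewer over all tested probe sets. Of these, 0.0592% rose without WT replicate 1 and 1.08% without WT replicate 3, against 2.26% with all arrays. Leaving out any other array gave 0.492% to 1.44%. Over all alternatives tried, the log2 fold change of Nrp1 was 0.38 to 0.54 (adjusted p 0.00067 to 0.0961), that of Tek 0.32 to 0.55 (adjusted p 0.00179 to 0.159) and that of Robo4 0.42 to 0.73 (adjusted p 0.00427 to 0.148). With each array centred on its median, Tek was not called.

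**Figure D5:**
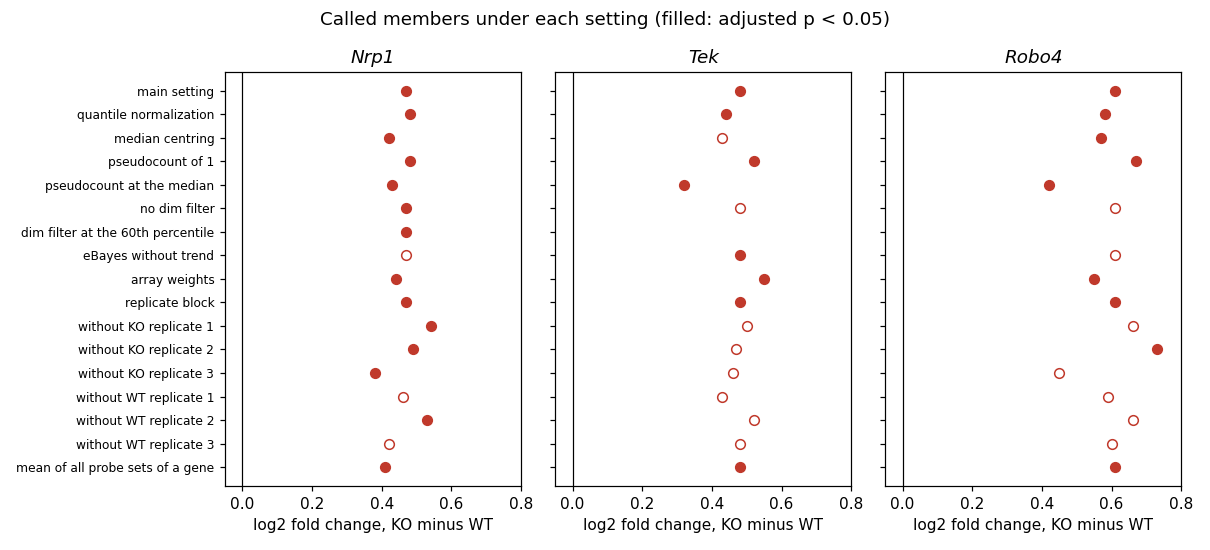
Log2 fold change (KO minus WT) of Nrp1, Tek and Robo4 under the main setting and each alternative; filled points had an adjusted p under 0.05 (limma). Points lie right of 0 throughout, from 0.32 (Tek) to 0.73 (Robo4). Leaving out 1 array could not have moved a point across 0. Nrp1 is filled most often, and the 60th percentile filter leaves Tek and Robo4 untested.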

How the data were processed

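Total RNA of whole testis was amplified, labelled with biotin and hybridised to 1-colour arrays, per the labels' protocols. The deposited table holds 1 linear signal intensity per probe set and array; the submitters' processing notes name MAS5 and give no version of it. Each array's mean without the lowest and highest 2% of the deposited intensities was 150.0. Of 45101 probe sets, 64 controls were left out; of the other 45037, 34945 had 1 gene symbol, 932 several and 9160 none here. Symbols were updated by Entrez identifier against RefSeq (GRCm38.p6), which held 34741 of the 34945.

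Signals were transformed to log2(signal + 7), 7 being the 25th percentile of all values. The 27022 probe sets with a mean of at least 20.54 (the 40th percentile) were compared, KO minus WT, by limma 3.58.1 (R 4.3.3; lmFit, then eBayes with trend; two-sided; genotype as the only term), with Benjamini-Hochberg adjustment over all of them. The fit was tested on simulated arrays. All members were named, with at most 4 called genes of each further vascular list, or the 2 of lowest p where none was called. The members and all lists were chosen with earlier results of these data known. Alternatives were quantile normalization, median centring, 2 other pseudocounts, 2 other filters, no trend, array weights, a replicate block, the mean of a gene's probe sets, any probe set of a gene, and each array left out. With 3 arrays a group, the number of arrays limits precision.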

Additional observations from a re-analysis of the deposited data

How the results depend on the processing

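The number of called members, 3 as reported, was 1 without the dim filter, 1 with the filter at the 60th percentile (which leaves 7 members tested) and 1 without the trend, and it was 7 with array weights. All these member calls were rises. Over all tested probe sets 2.26% rose as reported, 0.417%, 3.8% and 0.644% under the first 3 of these and 14% with array weights. The 7 members thus came with more rises among all probe sets. Rises and falls together were 7.49% as reported, 2.23%, 10.8% and 2.75% under the first 3, and 26.7% with array weights. Leaving out 1 array gave 0 to 2 called members, with rises in 0.0592% to 1.44% of all tested probe sets. Calls among the 78 other vascular genes, 3 as reported, numbered 13 with array weights and 0 to 6 when 1 array was left out. The study speaks of 3 pairs, but no label says that equal replicate numbers mark one. Deviations of same-numbered arrays correlated at 0.0793, 0.457 and 0.266, and each KO array correlated best with the WT array of its number. WT replicate 1, however, correlated better with KO replicate 3 (0.112) than with KO replicate 1 (0.0793). The numbers may mark the pairs, but these values do not settle it. Because the labels do not say so, the results reported used a fit without pairs. With the replicate block, 5 members were called (Cd34 and Ets1 beside the 3) and 12 of the other vascular genes, all of them higher in KO. In that fit 8.04% of all tested probe sets rose, and 16.7% rose or fell. The members' median log2 fold change stayed above 0 under all 16 alternatives, from 0.12 to 0.30. Of 412 fold changes of tested members under an alternative, 377 kept direction and side of the threshold, 18 lost the call and 6 gained one. The other 11, none of them of a called gene, changed sign. For the called genes, leaving out 1 array could not turn the sign. With array weights the sign turned for Flt1 (-0.15), Flt4 (-0.052), Vegfc (-0.12), Nrp2 (-0.082) and Nos3 (-0.033). Leaving out 1 array gave ranges that cross 0 for Esam (-0.19 to 0.12), Flt1 (-0.047 to 0.19), Flt4 (-0.031 to 0.29), Ramp2 (-0.011 to 0.24) and Nrp2 (-0.068 to 0.26). The cause was not tested. Over all tested probe sets, 610 of the 2024 calls were rises (30.1%), against 15.2% of 1629 with median centring.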
